A study of Saccharomyces cerevisiae with 6 samples.

Results

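RNA polymerase I (Pol I) of budding yeast cells that lack PAF1 was compared with Pol I of wild-type (WT) cells along the ribosomal DNA (rDNA). The comparison used 4 of the 6 libraries of the series, 2 from paf1△ cells and 2 from WT cells, and all 6858 positions of the table for this pair of genotypes. The assay was native elongating transcript sequencing (NET-seq): Pol I was immunoprecipitated from lysates of frozen cells, and the 3' ends of the RNA bound to it were read, each end marking the last base a polymerase had added. Saccharomyces cerevisiae was the organism throughout. The labels name no allele other than the paf1 deletion and give no treatment. They do not say whether the replicates were separate cultures or clones, so p-values measure the spread between these libraries only.

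PAF1 encodes a subunit of the Paf1 complex, which travels with elongating RNA polymerase and is best known for its work with RNA polymerase II, where it helps elongation and the modification of histones. In yeast it also associates with the rDNA and aids transcription by Pol I. Pol I makes 1 long precursor, the 35S RNA. The 18S, 5.8S and 25S rRNAs are cut out of it, and the spacers between and around them are discarded: the external transcribed spacers at both ends (5' ETS and 3' ETS) and the internal transcribed spacers ITS1 and ITS2. A high NET-seq signal at a base means that RNA ends collected there, as they do where polymerases dwell.

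The signal of a position is its number of reads, scaled by the authors to a sum of 1000000 per library over positions 1 to 6739. The last 119 positions lie outside that sum but on its scale. All values are therefore relative, and the total amount of Pol I on the rDNA was not measured. If the smallest value of a library is 1 read, the paf1 deletion libraries held 29671814 and 14203939.5 reads and the WT libraries 480708 and 226202. That is a median of 3021 and 1427 reads per position in the paf1 deletion libraries, against 41 and 20 in the WT libraries. The shallower paf1 deletion library was 29.5 times as deep as the deeper WT library, so genotype and depth cannot be told apart, and values with all libraries thinned to 226202 reads are given where they bear on a result. The table holds rDNA positions only, so loss of PAF1 RNA could not be checked in it.

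The sequences of the longest unbroken runs of positions that differed in one direction are shown first, with 5 nt on each side, because the values below refer to them. Each line gives RNA letters of the authors' table, 5' to 3', from the minus strand of chromosome XII in build R64, and capitals mark positions that differed between the genotypes, in either direction, by the test described below. The first 3 stretches held less signal in the paf1 deletion and the last 2 held more.
5' ETS, positions 520-555, chrXII:467015-467050: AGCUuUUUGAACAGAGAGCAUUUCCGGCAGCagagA
5' ETS, positions 117-150, chrXII:467420-467453: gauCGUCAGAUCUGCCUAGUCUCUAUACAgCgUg
25S, positions 4654-4684, chrXII:462886-462916: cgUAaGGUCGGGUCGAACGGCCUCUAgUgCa
25S, positions 6124-6159, chrXII:461411-461446: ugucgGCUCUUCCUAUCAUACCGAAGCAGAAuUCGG
25S, positions 5444-5475, chrXII:462095-462126: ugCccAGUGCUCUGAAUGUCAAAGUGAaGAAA

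Loss of PAF1 went with less signal in the spacer that Pol I meets first. The 5' ETS (ETS1-2 in the RefSeq annotation of R64) held 4.49% and 4.54% of the signal in the paf1 deletion libraries, against 10.2% and 8.65% in the WT libraries. Both parts of the spacer were lower: positions 1 to 350 held 2.47% ± 0.0596 in the paf1 deletion and 4.72% ± 0.525 in WT, and positions 351 to 700, next to 18S, held 2.04% ± 0.0208 in the paf1 deletion and 4.69% ± 0.553 in WT (SD, n = 2 each). ITS1, the spacer between 18S and 5.8S, held 0.978% and 0.946% in the paf1 deletion, against 1.28% and 1.35% in WT. The genotypes did not overlap in either spacer. Taken as a share of the spacers alone, ITS1 was higher in the paf1 deletion, by 2.69 percentage points, since the 5' ETS makes up most of that total. In ITS2 and the 3' ETS they overlapped, at 1.06% ± 0.103 in the paf1 deletion and 0.955% ± 0.0511 in WT for ITS2.

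The rRNA genes held correspondingly larger shares, and 5.8S stood out with 3.76% and 3.35% in the paf1 deletion libraries against 1.76% and 1.83% in the WT libraries, a ratio of 1.98. Within the long genes the gain was unequal. The 5' part of 18S, positions 701 to 1600, held 15.8% ± 0.542 in the paf1 deletion and 14.4% ± 0.220 in WT, whereas the rest overlapped, at 14.5% ± 0.589 in the paf1 deletion and 15.2% ± 0.440 in WT. The first and last 1132 positions of 25S held 18.4% ± 0.252 and 20.6% ± 0.0581 in the paf1 deletion, against 17.2% ± 0.289 and 18.6% ± 0.269 in WT. The middle 1132 went the other way, with 20.01% ± 0.0804 in the paf1 deletion and 20.4% ± 0.137 in WT. Because shares sum to a fixed total, a lower 5' ETS raises the rest. Every comparison of shares that did not overlap gave p = 0.333 in the exact two-sided permutation test, the smallest value that 2 libraries against 2 allow. The plot of shares by region shows each library.

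**Figure D1:**
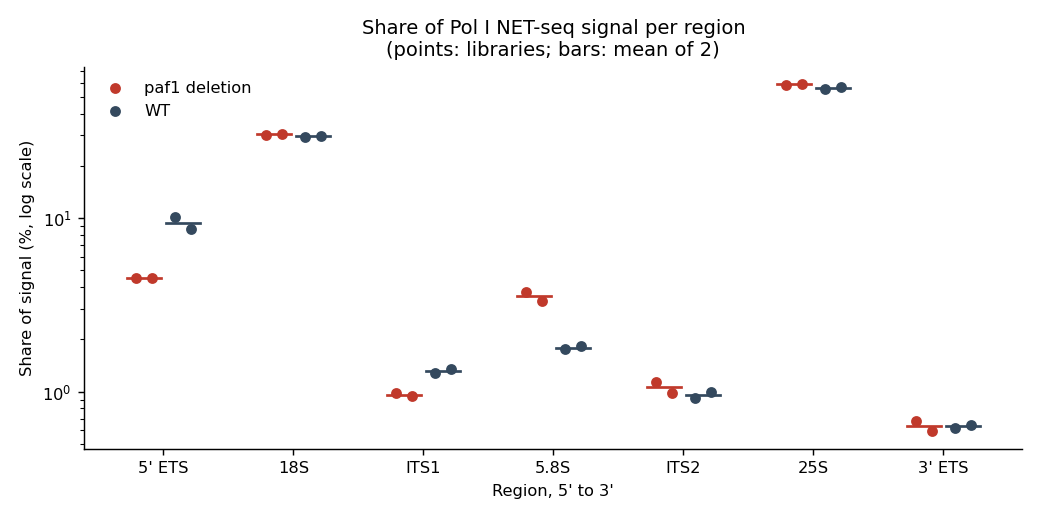
Share of the signal (percent, log scale) in each region of the 35S rDNA, with a point for each of the 2 libraries of a genotype and a bar at their mean. The paf1 deletion sits below WT in the 5' ETS and ITS1, above it in 5.8S, and overlaps it in ITS2 and the 3' ETS.

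To see which stretches carried these shifts, the share of each of 343 windows of 20 nt was tested with limma, with p-values adjusted by Benjamini-Hochberg and called under 0.05. The test called 68.8% of the windows: 131 (38.2%) were higher in the paf1 deletion, and 105 (30.6%) were lower. The 5' ETS had 20 of its 35 windows lower and 4 higher, and ITS1 had 11 of its 18 lower and 2 higher. All but 1 of the 8 windows of 5.8S were higher and none lower. The 3' ETS had 7 of 11 windows lower and 3 higher, with a median log2 fold change of -1.30, although its total share overlapped between the genotypes. Of the 169 windows of 25S, 78 gained and 42 lost share. Of the 90 of 18S, 33 gained and 21 lost, so each long gene held windows of both kinds. Their order along the gene was not tested.

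The window that fell most, positions 521 to 540 of the 5' ETS, held 0.0717% and 0.0956% of the signal in the paf1 deletion libraries, against 1.68% and 1.28% in the WT libraries. Its log2 fold change was -4.15 (SE 0.18, adjusted p 2.19e-06 by limma). It had the highest share of all windows in WT, and both paf1 deletion libraries were far below both WT libraries there. The next were the last 18 positions of the 3' ETS (log2 -3.49), positions 661 to 680 of the 5' ETS (-3.09), 4661 to 4680 of 25S (-2.75) and 361 to 380 of the 5' ETS (-2.61). At the other extreme, positions 6141 to 6160 of 25S held 0.290% and 0.255% in the paf1 deletion, against 0.0637% and 0.0668% in WT (log2 2.06, SE 0.11, adjusted p 6.60e-06). Positions 6021 to 6040, 4961 to 4980 and 5041 to 5060, also in 25S, rose by log2 1.90, 1.82 and 1.66. The first 20 positions of the 5' ETS were higher too (log2 1.89), but there WT held only 0.00624% and 0.0141% of its signal. All of these windows were picked for the largest changes among called windows, so the gaps between the genotypes at them follow from that choice.

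**Figure D2:**
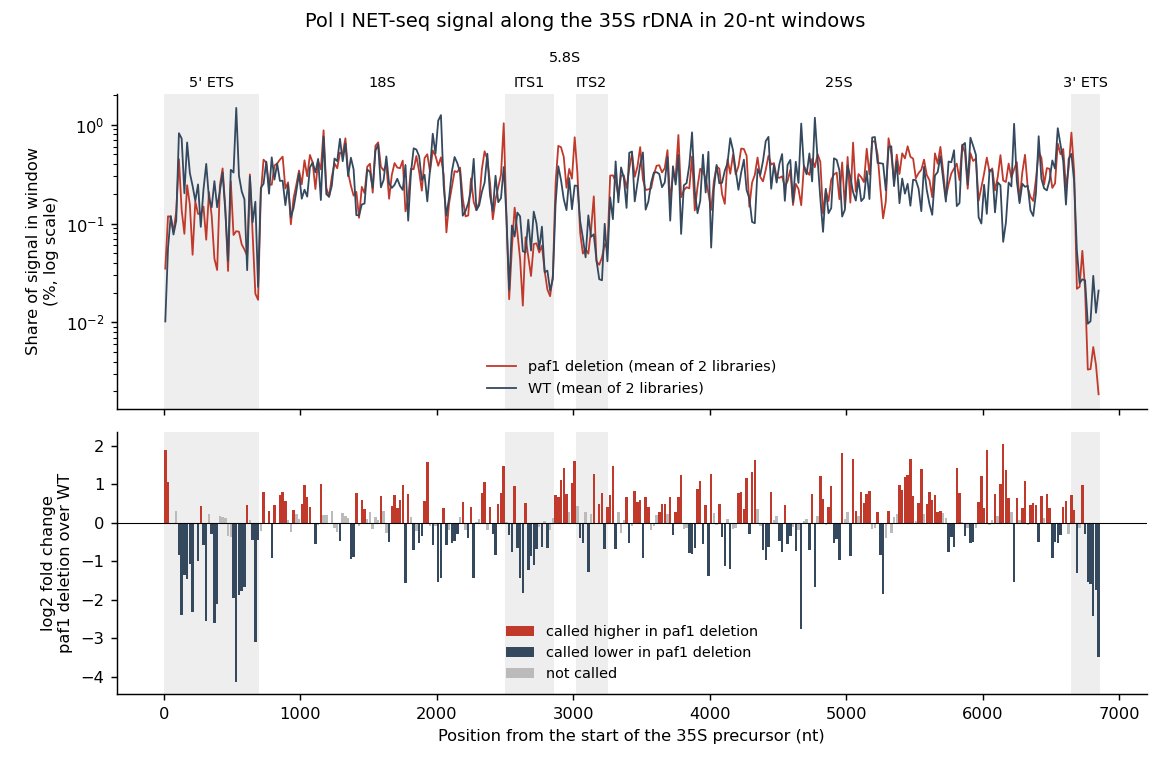
Top, share of the signal in each 20-nt window (percent, log scale) along the 35S rDNA, as the mean of 2 libraries per genotype, with spacers shaded. Bottom, log2 fold change of each window, paf1 deletion over WT, coloured by whether limma called it; lower calls gather in the 5' ETS, ITS1 and the end of the 3' ETS, and 5.8S has higher calls only.

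Single positions were tested with limma on log2(signal + 48.1), where 48.1 is 0.5 times the median of the values above 0, so fold changes of low positions are understated. It called 49.2% of the 6839 positions tested. Those with more signal in the paf1 deletion numbered 2024 (29.6%), 501 of them by 2-fold or more. Those with less numbered 1341 (19.6%), 519 of them by 2-fold or more. The genotypes did not overlap at 5190 positions (75.7%). These counts moved with single libraries and with depth. Without paf1 deletion replicate 1 the test called 775 higher and 673 lower, without paf1 deletion replicate 2 943 and 758, and with all libraries at one depth 994 and 821. The direction of the split depended on the scale: scaled to equal library medians 1502 were higher and 1655 lower, and with the spacer totals set equal 4227 and 634.

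Against that background of 19.6%, the paf1 deletion was lower at 43.6% of the 5' ETS positions tested, and against 29.6% it was higher at 62.2% of those of 5.8S. To ask whether signal also moved inside a region, whatever its total did, each library was scaled to the same mean in every region and the test repeated. That called 47.5% of positions, 1992 (29.1%) with more signal and 1259 (18.4%) with less. In the 5' ETS 217 of 692 then had more and 158 less, shares near those of all positions. In 5.8S 23 of 156 were then up and 36 down. Equal region means take out a shift of a region as a whole. The loss of the lean in 5.8S and in the 5' ETS thus follows largely from the scaling. The counts of 25S, 1136 of 3395 up and 642 down, were close to those without that scaling.

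Called positions formed runs. Each run was built from positions called in 1 direction, so the gap between the genotypes over it follows from that choice. The longest run of consecutive positions lower in the paf1 deletion covered positions 525 to 550 of the 5' ETS (chrXII:467020-467045), which held 0.0821% and 0.104% of the signal in the paf1 deletion and 1.81% and 1.43% in WT, 17.4-fold more in WT. The second, positions 122 to 145 of the same spacer, held 0.159% ± 0.0129 in the paf1 deletion and 0.853% ± 0.0312 in WT. The third, positions 4659 to 4679 of 25S, held 0.158% ± 0.0131 in the paf1 deletion and 1.05% ± 0.00295 in WT. The 5 longest runs lower also included positions 372 to 391 and 655 to 673 of the 5' ETS. All 5 of the longest runs that were higher lay in 25S. The first of them, positions 6129 to 6154, held 0.599% and 0.579% in the paf1 deletion and 0.180% and 0.193% in WT, a ratio of 3.16, and the next, positions 5449 to 5470, had a ratio of 3.03.

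Within the first of these stretches, position 539 had a signal of 12.3 and 16.7 in the paf1 deletion libraries, against 2205 and 1695 in the WT libraries (log2 -4.99, SE 0.16, adjusted p 1.77e-05). Position 537 had 33.6 and 50.7 in the paf1 deletion against 1543 and 1399 in WT, and position 538 had 33.5 and 55.9 in the paf1 deletion against 1349 and 1062 in WT. All 3 were below the median position in both paf1 deletion libraries and far above it in both WT libraries. Like the largest rises and falls of each region named below, they were chosen among called positions without overlap. The gap between the genotypes at all of these positions follows from that choice. Further upstream, position 163 had 527 and 753 in the paf1 deletion, against 2212 and 2301 in WT (log2 -1.76, adjusted p 0.000824), and was a pause site, as defined below, in both genotypes. Position 106 had 213 and 195 in the paf1 deletion, against 2947 and 1562 in WT (log2 -3.12, adjusted p 0.000158). Position 102, only 4 nt before it, had 1510 and 2296 in the paf1 deletion and 1110 and 779 in WT (log2 0.97, adjusted p 0.0259). That rise at position 102 lost its call after thinning, with medians set equal, or without paf1 deletion replicate 2. Among positions at or above the median signal, to which the named rises and falls of each region are limited, rises in the 5' ETS were smaller, the largest being at positions 623 (619 and 564 in the paf1 deletion, 110 and 173 in WT, log2 1.77), 622 (log2 1.51) and 279 (log2 1.28).

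**Figure D3:**
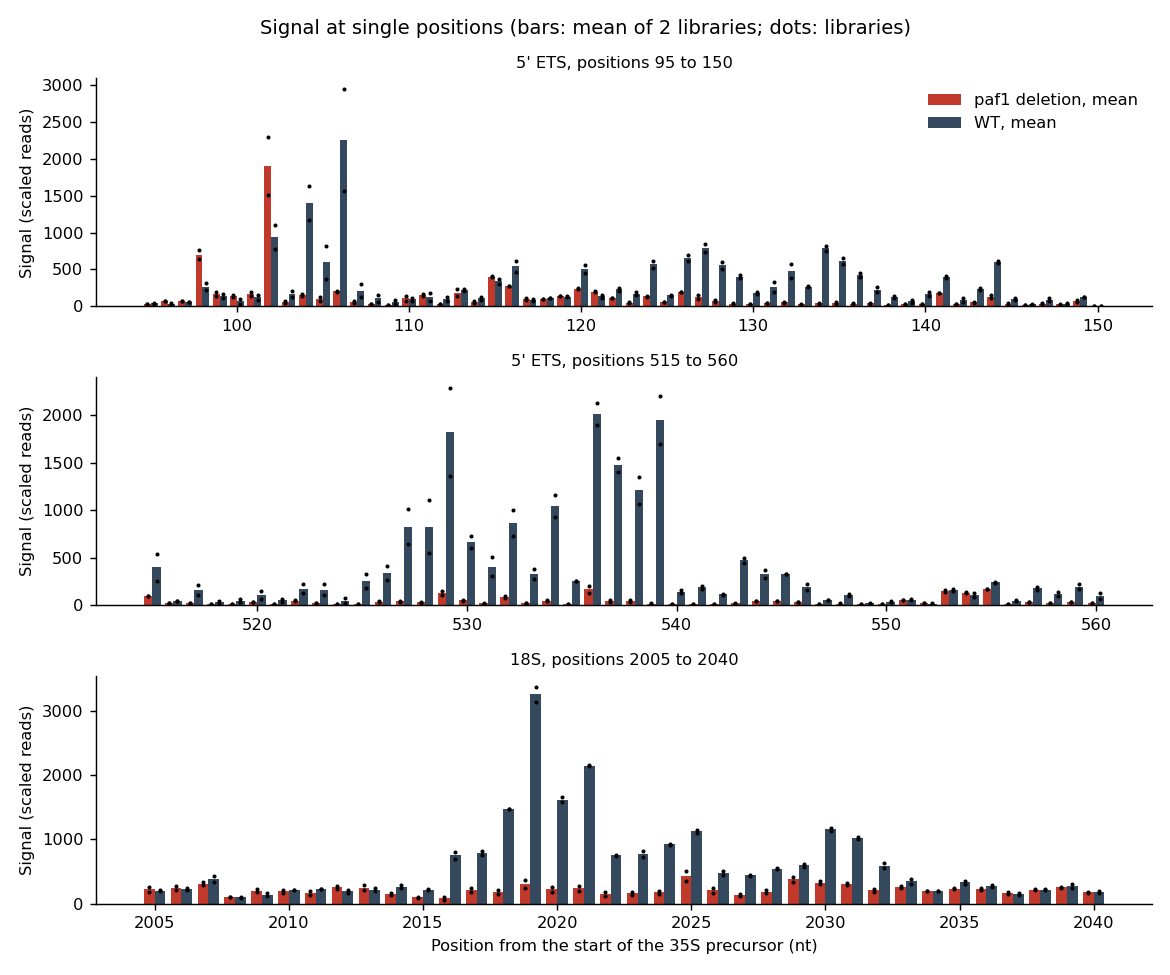
Signal at single positions in 3 stretches, with bars at the mean of 2 libraries per genotype and dots for the libraries; the horizontal axis is the position from the start of the 35S precursor in nt. WT peaks at positions 106, 527 to 539 and 2018 to 2021 are low in both paf1 deletion libraries, and position 102 is the tall peak of the paf1 deletion in the top panel.

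In 18S, which forms the core of the small ribosomal subunit, the largest falls sat side by side. Position 2019, the position with the highest mean in WT, had 242 and 364 in the paf1 deletion against 3369 and 3134 in WT (log2 -3.26, SE 0.23, adjusted p 7.77e-05). Positions 2021 and 2018 changed by log2 -2.95 and -2.72. These positions were named for large falls without overlap, so the gap between the genotypes at them follows from that choice. The largest rises of 18S were at position 1063 (1675 and 1634 in the paf1 deletion, 254 and 208 in WT, log2 2.61) and at its last bases. In 25S, the core of the large subunit, position 4151 had 70.3 and 106 in the paf1 deletion and 1060 and 1058 in WT (log2 -3.03), followed by positions 3991 (-2.91) and 5796 (-2.79). Position 5046 had 3076 and 2267 in the paf1 deletion, against 423 and 434 in WT (log2 2.497, adjusted p 0.000158), and positions 6182 and 6491 rose by log2 2.42 and 2.36.

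The internal spacers changed in both directions. In ITS1 position 2571 had 415 and 435 in the paf1 deletion and 99.96 and 79.7 in WT (log2 1.78), and positions 2572 and 2659 rose by log2 1.25 and 0.91. Positions 2710, 2666 and 2597 fell there by 1.58, 1.49 and 1.40 on the log2 scale. In ITS2 position 3116 had 18.8 and 18.2 in the paf1 deletion, against 379 and 434 in WT (log2 -2.77, adjusted p 4.28e-05), its neighbour 3115 changed by -1.88 and position 3053 by -1.73. Position 3158 had 844 and 767 in the paf1 deletion and 181 and 239 in WT (log2 1.73). It was the highest position of ITS2 in the deletion. The 2 highest positions of ITS2 made up 14.3% ± 0.400 of that spacer in the paf1 deletion and 9.79% ± 2.04 in WT.

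The 3' ETS, at the end of the transcribed unit, had a total that overlapped between the genotypes but was more concentrated in the paf1 deletion. Its 2 highest positions held 42.5% and 41.7% of it in the paf1 deletion, against 20.4% and 23.8% in WT. Position 6662 had 1916 and 1567 in the paf1 deletion and 546 and 770 in WT (log2 1.35, adjusted p 0.00266). Position 6650, the highest of the spacer by its mean in WT, had 515.3 and 416 in the paf1 deletion and 716 and 766 in WT (log2 -0.63), a difference that turned to log2 0.0937 with the spacer totals set equal. Positions 6680 and 6666 were lower, by log2 -1.66 and -1.19. At the far end of the spacer little signal was left in the deletion: the last 18 positions held 0.00185% and 0.00188% in the paf1 deletion and 0.0198% and 0.0221% in WT.

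The signal around the 3' ends of all 3 mature rRNAs was higher in the paf1 deletion, and that around their 5' ends was low in both genotypes. At each 3' end 3 positions in a row (2499 to 2501, 3018 to 3020 and 6647 to 6649) were 0 in all 4 libraries, so the values come from the bases beside them. The 11 positions within 5 nt of the 3' end of 18S held 0.841% and 1.09% in the paf1 deletion, against 0.270% and 0.408% in WT. Around the 3' end of 5.8S the shares were 0.881% and 0.706% in the paf1 deletion and 0.281% and 0.338% in WT, and around that of 25S 0.755% and 0.723% in the paf1 deletion against 0.423% and 0.5004% in WT. No library of one genotype overlapped the other at these 3' ends. Position 2498, 2 nt before the end of 18S, was the highest of the paf1 deletion with 4650 and 5678, against 658 and 952 in WT (log2 2.63). Beside it position 2497 had 934 and 1344 in the paf1 deletion, against 93.7 and 111 in WT (log2 2.96). Position 6643, 4 nt before the end of 25S, had 918 and 976 in the paf1 deletion and 196 and 283 in WT (log2 1.81). In 5.8S, which pairs with 25S in the large subunit, position 3017 had 2375 and 1888 in the paf1 deletion against 281 and 283 in WT (log2 2.71), and positions 3015 and 2983 rose by log2 2.49 and 2.09. Positions 2497, 2498, 2983, 3015 and 3017 were named among rises without overlap, so the separation of the genotypes at them follows from that choice. Position 6643 was named for lying within 5 nt of an end. It had the largest log2 fold change of the positions tested around the 3' end of 25S. Near it position 6646 rose by log2 1.06, position 6645 was not called (log2 0.28), and position 6650 was lower (log2 -0.63). Near the other 3' ends positions 2495 and 3014 were not called (log2 0.27 and 0.42). Around the 5' end of 18S the share was 0.0428% ± 0.00549 in the paf1 deletion and 0.0705% ± 0.00152 in WT. Around the 5' end of 25S it was 0.0241% ± 0.00221 in the paf1 deletion and 0.0194% ± 0.00311 in WT, and around that of 5.8S the genotypes overlapped. The table does not separate nascent from mature RNA, and the part of mature rRNA in the values of the genes was not tested.

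The long genes also had a flatter profile in the paf1 deletion. The Gini coefficient, which is 0 when all positions are equal and nears 1 when a few hold everything, was 0.429 and 0.434 for 18S in the paf1 deletion libraries, against 0.494 and 0.490 in the WT libraries. For 25S it was 0.422 and 0.426 in the paf1 deletion and 0.507 and 0.503 in WT. With all libraries thinned to one depth, 25S stood at 0.434 ± 0.00219 in the paf1 deletion and 0.507 ± 0.00459 in WT. The last 1132 positions of 25S differed more than its other parts and than either part of 18S, at 0.415 ± 0.00784 in the paf1 deletion and 0.522 ± 0.00942 in WT. In contrast 5.8S and the 3' ETS were less even in the deletion, with 0.541 ± 0.00546 against 0.502 ± 0.00240 in WT for 5.8S, and 0.870 ± 0.00470 against 0.796 ± 0.00675 in WT for the 3' ETS. The exact permutation p was 0.333 for each. In the 5' ETS and ITS1 the genotypes overlapped after thinning.

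Most pause sites of the 2 genotypes were at different bases. A base counted as a pause site where its signal exceeded the mean of its neighbours, 50 nt to either side, by more than 3 of their SD. The paf1 deletion libraries had 143 and 135 such sites and the WT libraries 148 and 167. Replicates shared most of theirs: 114 sites were found in both paf1 deletion libraries, 79.7% and 84.4% of each, and 130 in both WT libraries, 87.8% and 77.8% of each. Only 28 sites were common to all 4 libraries, which is 24.6% of the 114 and 21.5% of the 130. Another 75 sites of the paf1 deletion were in neither WT library, and 94 sites of WT were in neither paf1 deletion library. A site is judged against its neighbours, so a site of 1 genotype only need not hold less signal in the other. Position 2496, a site of WT only, had 1136 and 1662 in the paf1 deletion and 537 and 690 in WT. The tallest sites of WT only, listed below, were lower in the paf1 deletion. After thinning, 25 were common to 105 sites of the paf1 deletion and 129 of WT. The turnover was seen in every large region: 18S had 32 sites in each genotype and shared 4, 25S had 50 in the paf1 deletion and 71 in WT and shared 17, and the 5' ETS had 16 in the paf1 deletion and 14 in WT and shared 4.

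**Figure D4:**
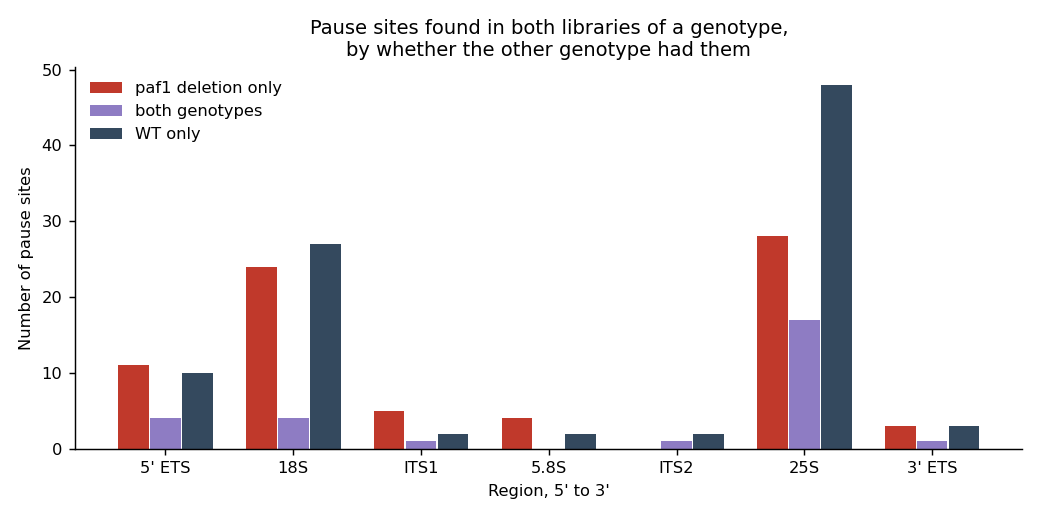
Number of pause sites in each region that were found in both libraries of a genotype, split by whether they were found in both libraries of the other genotype or in neither. The paf1 deletion has 28 sites of its own in 25S and WT has 48, while 17 are shared.

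The tallest sites found in 1 genotype only show what these ends look like. In each line the 10 bases before the RNA 3' end come first, and the capitals are the base at the 3' end and the next base to be added. Sites found in the paf1 deletion only:
position 102, 5' ETS, chrXII:467463-467478: caaacgguggAGagag
position 3015, 5.8S, chrXII:464550-464565: guuugagcguCAuuuc
position 3017, 5.8S, chrXII:464548-464563: uugagcgucaUUuccu
position 5046, 25S, chrXII:462519-462534: ugacggcccgUGaaaa
position 5158, 25S, chrXII:462407-462422: gggaagucggCAaaau
Sites found in WT only:
position 106, 5' ETS, chrXII:467459-467474: cgguggagagAGucgc
position 2019, 18S, chrXII:465546-465561: cuuaauugcgAUaacg
position 2021, 18S, chrXII:465544-465559: uaauugcgauAAcgaa
position 4771, 25S, chrXII:462794-462809: guuggacgugGGuuag
position 6545, 25S, chrXII:461020-461035: gcguggggauAAauca
Most sites of either genotype followed a G. A G stood just before the 3' end at 57.0% of the sites of the paf1 deletion and at 53.1% of those of WT, where 26.3% of all positions follow a G, and the 3' end was an A at 51.8% of the sites of the paf1 deletion and 49.2% of those of WT, where 27.0% of all positions are A.

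The genotypes differed in the signal by the base after the 3' end. Positions followed by a C held less relative signal in the paf1 deletion. Relative to the mean of all positions of the spacers, positions followed by C had a signal of 0.640 and 0.599 in the paf1 deletion libraries, against 0.924 and 1.01 in the WT libraries. In the rRNA genes it was 0.752 and 0.754 in the paf1 deletion, against 0.996 and 0.963 in WT. The gap had the same direction in each of the 7 regions and no library overlapped the other genotype in any of them. The lowest level of the paf1 deletion was in the 5' ETS, at 0.489 ± 0.0195 against 0.873 ± 0.0606 in WT. The highest was in ITS2, which has only 36 such positions, at 1.11 ± 0.0601 in the paf1 deletion and 1.34 ± 0.0984 in WT. For the comparison over spacers and for that over genes the exact permutation p was 0.333. Benjamini-Hochberg adjustment over the 24 comparisons of bases leaves none below 0.05, as this design must. A difference for C was not particular to the next base. In the spacers, positions with a C 2 nt before the 3' end stood at 1.41 and 1.30 in the paf1 deletion, against 0.927 and 0.942 in WT. Those with a C 5 nt after it stood at 1.03 and 0.957 in the paf1 deletion, against 1.42 and 1.34 in WT.

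Before a C the signal was lower whichever base formed the 3' end. With G at the 3' end and C next it was 0.644 ± 0.0235 of the mean in the paf1 deletion and 0.955 ± 0.0155 in WT, and with C at the 3' end it was 0.754 ± 0.00357 in the paf1 deletion and 1.03 ± 0.0271 in WT. With A it was 0.852 ± 0.0112 in the paf1 deletion and 1.06 ± 0.000114 in WT, and with U 0.830 ± 0.0142 in the paf1 deletion and 0.961 ± 0.0128 in WT. The calls of single positions showed the same: of 1278 tested positions followed by C, 17.8% were higher and 29.0% lower, against 29.6% and 19.6% of all positions. Followed by A, 35.4% were higher and 15.5% lower. Among pause sites, C came next at 6 of the 114 (5.26%) of the paf1 deletion and at 22 of the 130 (16.9%) of WT. Among all positions C came next at 18.7%, which the WT sites were near. It came next at none of the 28 sites that were common. With thinned libraries the relative signal before C was 0.627 ± 0.0262 in the paf1 deletion and 0.964 ± 0.0590 in WT in the spacers. The other next bases differed less or overlapped: before U the values were 1.15 ± 0.00643 in the paf1 deletion and 1.03 ± 0.00258 in WT in the spacers, and before A 1.199 ± 0.0138 in the paf1 deletion and 1.09 ± 0.00654 in WT in the genes. At the 3' end itself, A was more favoured in the genes of the paf1 deletion (1.24 ± 0.00107 against 1.13 ± 0.0139 in WT) and less in its spacers (1.23 ± 0.00500 against 1.33 ± 0.0128 in WT), while a G just before the 3' end marked high signal in both genotypes, at 1.75 ± 0.139 in the paf1 deletion and 1.73 ± 0.0809 in WT in the spacers.

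**Figure D5:**
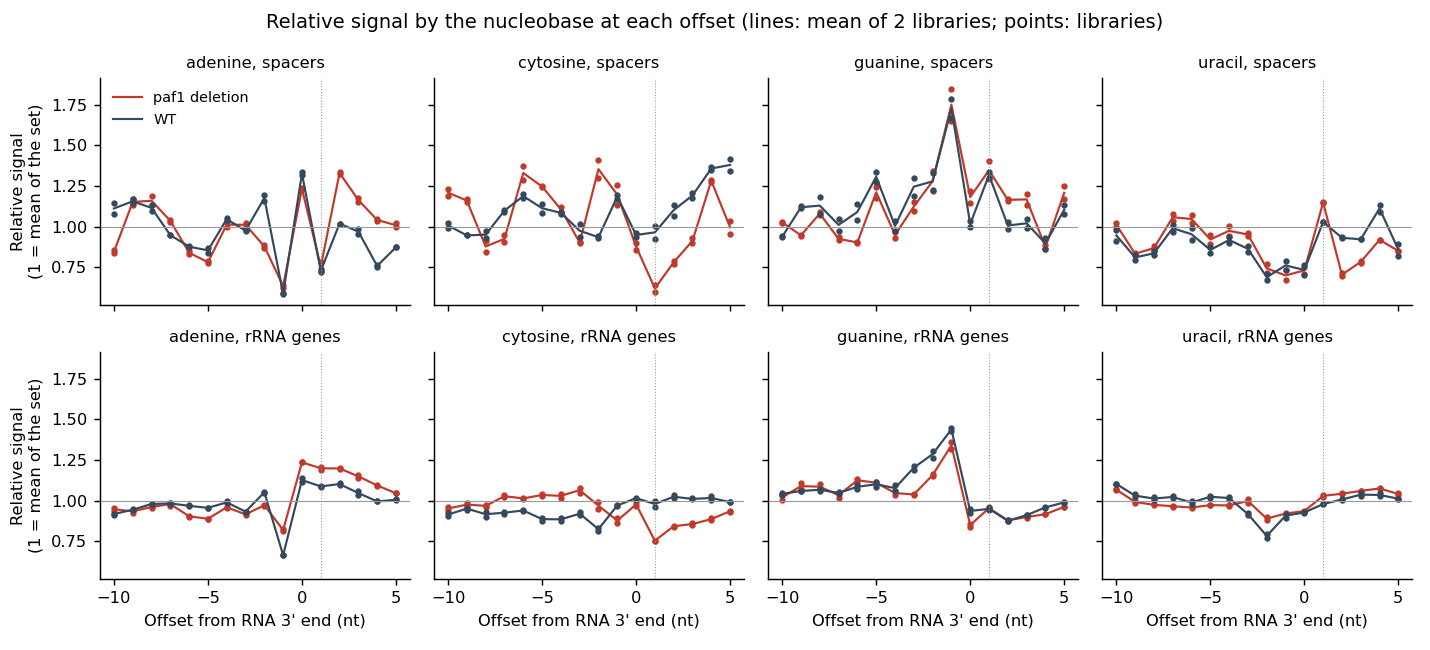
Relative signal of positions that have a given nucleobase at each offset from the RNA 3' end, in nt, where 0 is the 3' end, 1 the next base to be added and a value of 1 the mean of the set; lines are means of 2 libraries and points are libraries. At offset 1 (dotted line) the curves for cytosine part, with the paf1 deletion at 0.620 and WT at 0.965 in the spacers, and the paf1 deletion at 0.753 and WT at 0.979 in the rRNA genes, while guanine at offset -1 is high in both. In the spacers the curves for cytosine also part at other offsets, -2 and 5 among them.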

How the data were processed

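Per the labels, 3' ends of RNA bound to immunoprecipitated Pol I were ligated to a linker with a unique molecular identifier and sequenced. The submitters' processing notes list, besides build R64, the aligner STAR 2.7.1a and the trimmer cutadapt 3.4, with bedtools 2.28.0 and SAMtools 1.6. Not given in the sources used here are the use of the identifiers, the read end taken as the position, and the placing of reads that match several repeats. The deposited signal per position was scaled by the authors to 1000000 over positions 1 to 6739, as the values show. Coordinates, bases and regions are those of the deposited table, per the file headers. The authors' means, ratio and p-values for this pair were not used.

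Positions above 0 in at least 2 of the 4 libraries were tested on log2(signal + 48.1) by limma 3.58.1 (R 4.3.3; lmFit, then eBayes with a trend), with no block and Benjamini-Hochberg adjustment. The same was done after scaling each region to the same mean (pseudocount 48.0), and shares of 20-nt windows were tested by limma without trend. Single values were compared with two-sided exact permutation tests. Tested on simulated data with 200 of 6841 positions changed, the position test recovered 100% of those raised and 98% of those lowered by log2 2. At log2 1 it recovered 80% and 58%, with 1 false call among 169. The changed positions were drawn from those at or above the median signal, and all positions had the same spread between replicates. In the real data 49.2% of positions were called, so these rates need not hold there. Thinning drew reads without replacement. Python 3.11.15, numpy 2.4.6, pandas 2.3.3, scipy 1.17.1 and matplotlib 3.10.9 were used for the rest.

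Named positions are the 3 largest rises and 3 largest falls of each region among called positions with a mean at or above the median and groups that do not overlap, the 5 highest of each genotype, the 5 highest pause sites found in 1 genotype only, and positions within 5 nt of mature ends. Named stretches are the 5 longest runs and the 5 windows that changed most, each way. The comparison, these rules and the tests were chosen with earlier results of these data known. Alternatives were other pseudocounts, filters, scalings, window widths and pause thresholds, capping, thinning, a replicate block, and leaving out each library.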

Additional observations from a re-analysis of the deposited data

How the results depend on the processing

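Depth, single libraries and the scaling each moved the counts. Thinned to one depth, 994 positions were higher and 821 lower in the paf1 deletion, and within their region 1167 were higher. Leaving out 1 library gave 775 to 2488 higher and 673 to 1728 lower, and within regions 845 to 2400 and 668 to 1555. The lowest counts came without paf1 deletion replicate 1 and the highest without a WT library, and the cause was not tested. With the spacer totals set equal 4227 positions were higher and 634 lower, so that 87.0% of the calls were higher, against 60.1% as reported and 47.6% with medians set equal; the median log2 fold change of all positions was then 0.554, 0.0942 and -0.00713. Under the spacer scaling position 2956 turned to log2 0.0433 and position 6650 to 0.0937. Of 51 named positions, 45 kept their direction and call in every alternative run for them. Positions named only for lying within 5 nt of a mature end were left out of that count. Windows of 50 nt gave 60 higher and 50 lower of 137, fewer because fewer were tested. A pause threshold of 4 SD left 66 sites in the paf1 deletion, 77 in WT and 15 common.

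Across positions, the difference in log2 signal between the paf1 deletion replicates correlated at 0.11 with that between the WT replicates. With only 2 libraries per genotype, this value cannot decide whether replicates of the same number belong together. With the replicate block 2095 positions were higher and 1387 lower, within regions 1994 and 1276, and 140 and 111 windows. The count test on recovered reads was not run, because the paf1 deletion columns did not pass the check for whole reads.

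Some differences changed sign (paf1 deletion minus WT, the cause not tested), among them ones whose groups did not overlap: the ITS1 share and Gini coefficient, C and G at the 3' end in the spacers and U at it in the genes. The 3' ETS share turned to -0.115 percentage points with values capped and -0.00862 thinned, and ran from -0.0412 to 0.0463 without 1 library. The ITS1 share of the spacer total turned to 2.69. The Gini coefficient turned to 0.00444 in ITS1 and 0.0169 in ITS2 when thinned, and ran from -0.0288 to 0.0275 in ITS2 without 1 library, while the top 1% of the 5' ETS ran from -0.0626 to 2.74. For bases, the median in place of the mean turned the spacer values before the 3' end to -0.351 for C and -0.199 for G, at it to 0.00323 for C and -0.0103 for G, and after it to -0.0272 for G. In the genes it gave -0.0529 for U before, -0.0143 for U at, and -0.0232 for G after the 3' end. Capping gave -0.0543 for C before and -0.00014 for A after it in the spacers, and -0.00262 for U before and -0.00595 for U at it in the genes, and thinning 0.00329 for U at it in the spacers. Without 1 library the spacer values ran from -0.0492 to 0.0724 (C before), -0.0748 to 0.121 (G before), -0.0311 to 0.0258 (U at), -0.00206 to 0.0531 (A after) and -0.0252 to 0.0840 (G after), and G after in the genes from -0.00183 to 0.0104. The difference for C after the 3' end kept its sign in all alternatives run for it.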

Other observations

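The base after the next one also differed between the genotypes, which was seen only after the values had been examined. In the spacers, positions with a C there stood at 0.780 ± 0.0122 of the mean signal for the paf1 deletion and 1.102 ± 0.0472 for WT, those with an A at 1.33 ± 0.0129 for the paf1 deletion and 1.019 ± 0.000446 for WT, and those with a U at 0.704 ± 0.0113 for the paf1 deletion and 0.931 ± 0.00316 for WT (SD, n = 2 each). In the rRNA genes the values for C were 0.843 ± 0.00599 in the paf1 deletion and 1.024 ± 0.0112 in WT, and those for A 1.198 ± 0.00371 in the paf1 deletion and 1.102 ± 0.00624 in WT. For U the genes went the other way from the spacers, with 1.043 ± 0.00440 in the paf1 deletion and 1.007 ± 0.00103 in WT. The exact permutation p was 0.333 for each, the smallest that 2 libraries against 2 can give. The base before the 3' end differed in the genes, where positions that follow an A stood at 0.820 ± 0.00863 in the paf1 deletion and 0.664 ± 4.56e-05 in WT.

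The position profiles of replicates were alike, with a Pearson correlation of log2 signal across 6858 positions of 0.980 between the paf1 deletion libraries and 0.961 between the WT libraries. Between the genotype means it was 0.715, ranging from 0.622 in the 5' ETS to 0.850 in 5.8S. Moving 1 profile by 1 nt in either direction lowered the correlation to 0.483 and 0.479, and no offset tried, up to 3 nt either way, exceeded the value without one. The points of these correlations are neighbouring positions of the same libraries and carry no test. The mean position of the signal within a region lay nearer the start in the paf1 deletion in the 5' ETS, at 324 ± 2.58 nt against 348 ± 2.27 nt in WT, and in the 3' ETS, at 29.7 ± 1.57 nt against 46.0 ± 0.423 nt in WT. In 25S it lay farther along, at 1765 ± 1.03 nt in the paf1 deletion and 1727 ± 1.09 nt in WT. It also lay nearer the start in 18S, at 887 ± 17.8 nt in the paf1 deletion and 912 ± 8.56 nt in WT. The same held in ITS1, at 148 ± 4.99 nt in the paf1 deletion and 157 ± 3.94 nt in WT. In 5.8S it lay farther along, at 82.0 ± 3.66 nt in the paf1 deletion and 76.2 ± 0.788 nt in WT. Only in ITS2 did the genotypes overlap.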
